A study of Mus musculus with 8 samples.

Results

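The liver genes described here encode the carriers that bring bile salts from the blood into hepatocytes across their basolateral, or sinusoidal, membrane. They are Slc10a1, Slco1a1, Slco1a4, Slco1b2 and Slco2b1, chosen by name and found through their Ensembl identifiers in the deposited count table. They make up 5 of 55401 identifiers listed and 5 of the 17669 genes tested, since all 5 passed the filter on low counts.

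RNA was sequenced from the livers of NOD Scid Gamma (NSG) mice, an immunodeficient strain without mature T, B and natural killer cells that keeps its macrophages. Each mouse carried a subcutaneous tumour of a human colorectal cancer line. In 4 libraries the line was Colo201, which the series describes as high in FGF19, and in 4 it was HCT116, described as low in FGF19. Male and female labels stood at 2 libraries each within either line. FGF19 is an intestinal hormone that lowers bile acid synthesis in hepatocytes, and the series compares host livers under these tumours. No library analysed here came from a tumour-free host, and each line had a single FGF19 state, so FGF19 and other differences between the tumours cannot be told apart. The age of the mice is not given in the labels.

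The libraries held 61347603 to 65457482 estimated counts each, and the carriers had between 5805 and 62730 of these per library. Titles pair a number with L or R, with no statement of whether these letters mark separate animals. All p-values below therefore rest on the spread from library to library, part or all of which may be technical. Each combination of line and sex label held a single title number. Number 2 was Colo201 labelled male and 4 Colo201 labelled female, while 1 was HCT116 labelled male and 3 HCT116 labelled female. Line differences within a sex label, and the interaction, cannot be told apart from differences between title numbers. The comparison of lines rests on numbers 2 and 4 against 1 and 3, and that of sex labels on 1 and 2 against 3 and 4. In every n below, L and R of a number are counted as separate libraries. Sex is given only as labelled, because the sex chromosome genes ran opposite to it. Xist, the transcript of the inactive X chromosome, had 239 to 374 CPM (counts scaled to a common library total) in libraries labelled male, against 0.275 to 0.833 CPM in those labelled female. Of the Y-linked genes, 4 were read (Uty, Kdm5d, Eif2s3y and Ddx3y), with a maximum of 0.0764 CPM in libraries labelled male, against 8.93 to 65.7 CPM in those labelled female. None of the 12 hepatocyte markers was at 0 in all libraries, and they summed to 160076 to 194951 CPM in Colo201 hosts and 132681 to 176317 CPM in HCT116 hosts.

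Bile salts circulate between liver and intestine, and the hepatocyte recovers them from portal blood by sodium-dependent and sodium-independent routes. Slc10a1 encodes NTCP, the sodium cotransporter of conjugated bile salts. The Slco genes encode organic anion transporting polypeptides (OATPs), which take up unconjugated bile acids, bilirubin, hormones and drugs without sodium; Slco1b2 is the mouse counterpart of the human liver carriers OATP1B1 and OATP1B3.

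In GRCm38 coordinates Slc10a1 (ENSMUSG00000021135) lies at chr12:80953183-80968705 on the minus strand. Slco2b1 (ENSMUSG00000030737) lies at chr7:99657804-99711340 on the minus strand, where it overlaps 2 antisense genes, so reads of these cannot be told apart without a stated strand setting. The other 3 members sit within a cluster of 6 Slco1 genes. Slco1b2 (ENSMUSG00000030236) is on the plus strand at chr6:141629518-141686646, Slco1a4 (ENSMUSG00000030237) on the minus strand at chr6:141805440-141856199, and Slco1a1 (ENSMUSG00000041698) on the minus strand at chr6:141907282-141946962. The Slco1a1 span overlaps Gm22036, a gene of type misc_RNA on the same strand, so a strand setting would not separate reads from any shared bases. No gene overlaps Slc10a1, Slco1a4 or Slco1b2. The coding sequences of Slco1a1 and Slco1a4 were identical at 86.67% of 2010 aligned bases. Of the 50-base stretches in the carriers' transcripts, 1.64% of Slco1a1, 1.61% of Slco1a4 and 0.957% of Slc10a1 occurred in another gene; no such stretch was found in Slco1b2 or Slco2b1.

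The 250 bases before the start are shown for the 3 carriers whose level passed a test below, as RefSeq gives them for GRCm38.p6, 5′ to 3′ on the gene's own strand. Capitals mark matches, on either strand, to the hepatic motifs searched: the FOXA site TGTTTGC, the nuclear receptor hexamer AGGTCA, the STAT site TTCNNNGAA and the ONECUT site ATCAAT. The DR1 and IR1 repeats of the nuclear receptor hexamer, each with 1 free base in the middle, were searched as well; they contain the hexamer.
Slco1b2, chr6:141629268-141629517, plus strand: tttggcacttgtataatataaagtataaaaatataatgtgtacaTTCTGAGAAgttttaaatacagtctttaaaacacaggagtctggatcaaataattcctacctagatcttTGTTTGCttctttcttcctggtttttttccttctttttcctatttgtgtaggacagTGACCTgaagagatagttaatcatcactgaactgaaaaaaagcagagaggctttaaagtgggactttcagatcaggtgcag
Slco1a1, chr6:141946963-141947212, minus strand: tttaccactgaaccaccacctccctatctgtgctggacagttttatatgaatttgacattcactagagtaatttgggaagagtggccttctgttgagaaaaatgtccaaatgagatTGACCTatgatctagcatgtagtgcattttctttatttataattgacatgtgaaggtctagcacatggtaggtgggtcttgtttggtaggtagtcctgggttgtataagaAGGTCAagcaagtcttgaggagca
Slco1a4, chr6:141856221-141856470, minus strand: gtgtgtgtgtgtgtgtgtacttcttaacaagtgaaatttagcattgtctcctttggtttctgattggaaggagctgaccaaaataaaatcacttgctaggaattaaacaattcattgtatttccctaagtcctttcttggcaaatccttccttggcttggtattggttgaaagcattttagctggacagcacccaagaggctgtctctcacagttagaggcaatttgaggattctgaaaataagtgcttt

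The Slco1b2 window held 3 matches, with the STAT site at -206, the FOXA site at -137 and the nuclear receptor hexamer at -81 from the start. The Slco1a1 window held 2 nuclear receptor hexamers, and the Slco1a4 window held no match. The windows not shown held 1 match in Slc10a1, a STAT site, and 0 in Slco2b1. Among 32851 windows of this length the hexamer occurred in 14.02%, the STAT site in 7.02%, the ONECUT site in 6.72% and the FOXA site in 4.30%. DR1 and IR1 were found in 0 of the 5 carriers, and in 0.0335% and 0.00609% of all windows in that order. A match describes the letters only.

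Levels of different carriers were compared per transcript length, as the authors' FPKM. Slc10a1 was the most abundant carrier in all 8 libraries and Slco2b1, a broad organic anion carrier, the least abundant in all 8. Slc10a1 had 274, 252, 208 and 207 FPKM in Colo201 2L, 2R, 4L and 4R, against 285, 281, 266 and 235 FPKM in HCT116 1L, 1R, 3L and 3R. This placed it between rank 171 and rank 232 among all genes of a library. Slco2b1 had 21.3, 26.0, 23.3 and 21.6 FPKM in the Colo201 libraries and 25.3, 26.5, 18.4 and 14.4 FPKM in the HCT116 libraries, at ranks 1407 to 2279.

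The order between these ends differed by library. Slco1b2 had 102 to 125 FPKM in Colo201 hosts and 146 to 180 FPKM in HCT116 hosts, and Slco1a1 had 55.9 to 153 FPKM in Colo201 hosts and 50.7 to 171 FPKM in HCT116 hosts. Slco1a1 stood above Slco1b2 in Colo201 4L, Colo201 4R and HCT116 3R, all labelled female, and below it in the other 5 libraries. Slco1a4 had 28.1 to 55.8 FPKM in Colo201 hosts and 31.5 to 71.9 FPKM in HCT116 hosts. It passed Slco1a1 in HCT116 1L and nearly equalled it in Colo201 2R, at 55.8 against 55.9 FPKM. With CPM divided by the longest coding transcript instead, Slco1a4 stood above Slco1a1 in Colo201 2R and HCT116 1R as well, and Slco1b2 stood above Slco1a1 in HCT116 3R; the places of Slc10a1 and Slco2b1 did not move.

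The 5 carriers together had 514 ± 26.6 FPKM in Colo201 hosts and 613 ± 42.8 FPKM in HCT116 hosts (SD, n = 4 each). The ranges, 490 to 539 FPKM in Colo201 and 579 to 675 FPKM in HCT116, did not overlap. The sum was not tested, and no share over all genes was computed for it. Slco1b2 was the only carrier whose own FPKM ranges were apart, with means of 109 FPKM in Colo201 hosts and 158 FPKM in HCT116 hosts. Slco2b1 had the higher mean in Colo201 hosts, at 23.0 against 21.2 FPKM. Slc10a1 took 38.8 to 51.2% of this sum in Colo201 hosts and 38.7 to 49.1% in HCT116 hosts. Its share followed the sex label more closely, at 47.5 to 51.2% in libraries labelled male and 38.7 to 42.5% in those labelled female. Slco1a1 had the opposite order, with 8.75 to 18.9% in libraries labelled male and 25.3 to 28.6% in those labelled female. These shares are parts of the same sum, so a lower Slco1a1 level by itself raises the share of Slc10a1. The FPKM of Slc10a1 overlapped, at 252 to 285 in libraries labelled male and 207 to 266 in those labelled female.

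**Figure D1:**
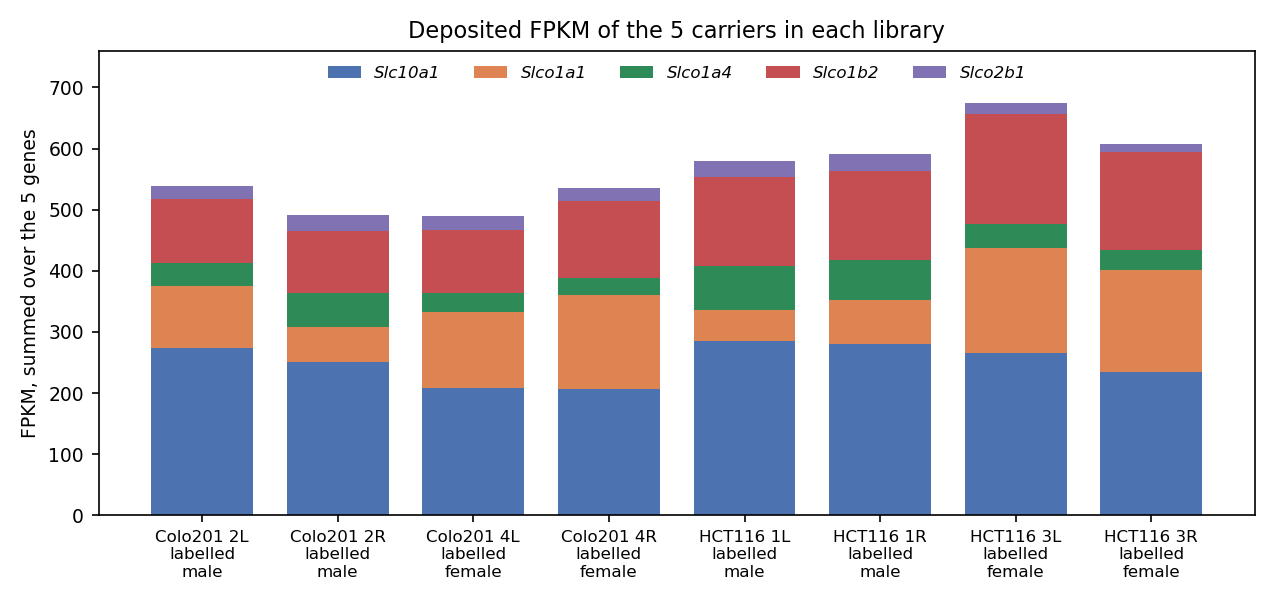
Deposited FPKM of the 5 carriers (y axis, stacked) in each of the 8 libraries (x axis). Slc10a1 is the largest block in every bar, and the summed bars reach 490 to 539 FPKM in Colo201 hosts and 579 to 675 FPKM in HCT116 hosts.

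The main comparison set Colo201 hosts against HCT116 hosts, with sex label as a covariate. Of the 5 carriers 1, Slco1b2, was lower in Colo201 hosts at an adjusted p under 0.05, and 0 were higher. Of all genes tested, 4.78% were called in this comparison, with 2.48% higher and 2.3% lower in Colo201 hosts. An unadjusted p under 0.05 was reached by 2 of the 5 carriers and by 21.7% of all genes. The median log2 fold change, Colo201 over HCT116, was -0.15 for the carriers and 0.0021 for all genes tested.

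Slco1b2 had 567, 555, 559 and 679 CPM in Colo201 2L, 2R, 4L and 4R, against 787, 783, 969 and 868 CPM in HCT116 1L, 1R, 3L and 3R. Every Colo201 library lay below every HCT116 library, with Colo201 4R standing above the other 3 of its line. Over all genes tested, 6.4% had the Colo201 range wholly below the HCT116 range. The means were 590 ± 59.5 CPM in Colo201 hosts and 852 ± 87.3 CPM in HCT116 hosts (SD, n = 4 each), and the fitted level in Colo201 hosts fell by 29.1%. On the log2 scale the difference was -0.50 with an SE of 0.084 (adjusted p = 0.0200, quasi-likelihood test of edgeR). The adjusted p was 0.0520 without Colo201 2R, 0.0641 without HCT116 1L, 0.0596 without HCT116 1R, 0.0670 without HCT116 3L, 0.0662 without the sex label covariate and 0.130 with L and R of a number summed, while the log2 fold change stayed between -0.54 and -0.44 over all 20 alternatives.

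Slco1a4, which encodes OATP1A4, a carrier of bile salts and cardiac glycosides, had 256, 393, 227 and 198 CPM in the Colo201 libraries, against 501, 457, 279 and 222 CPM in the HCT116 libraries. The lines overlapped, because HCT116 3L and 3R lay within the Colo201 range. The log2 fold change was -0.37 (SE 0.13, adjusted p = 0.154, edgeR); Slco1a4 was the other carrier under 0.05 before adjustment.

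Slc10a1 had 657, 608, 505 and 503 CPM in the Colo201 libraries, against 680, 672, 639 and 569 CPM in the HCT116 libraries. Within each sex label both Colo201 values lay below both HCT116 values, as in 26.7% of all genes within labelled male and 23.1% within labelled female, but the lines overlapped as a whole. The log2 fold change of this sodium-dependent carrier was -0.15 (SE 0.082, adjusted p = 0.346, edgeR). Slco2b1 had 139, 170, 153 and 142 CPM in the Colo201 libraries, all inside the range of 164, 172, 120 and 94.6 CPM in the HCT116 libraries, with a log2 fold change of 0.20 (standard error 0.13; adjusted p = 0.425).

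Slco1a1, which encodes OATP1A1, varied most between libraries of a line. It had 588, 324, 721 and 890 CPM in the Colo201 libraries, against 291, 413, 986 and 967 CPM in the HCT116 libraries, and the lines overlapped almost entirely. Its coefficient of variation was 37.9% in Colo201 hosts and 54.8% in HCT116 hosts, against 10.1% and 10.2% for Slco1b2 in Colo201 and HCT116 hosts. The log2 fold change was 0.09 (SE 0.24, adjusted p = 0.870), opposite in sign to the difference of the raw means, 631 ± 239 CPM in Colo201 hosts and 664 ± 364 CPM in HCT116 hosts (SD, n = 4 each). Its sign also turned to -0.21 without Colo201 2L, to -0.076 without HCT116 1L and to -0.043 without the sex label covariate.

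**Figure D2:**
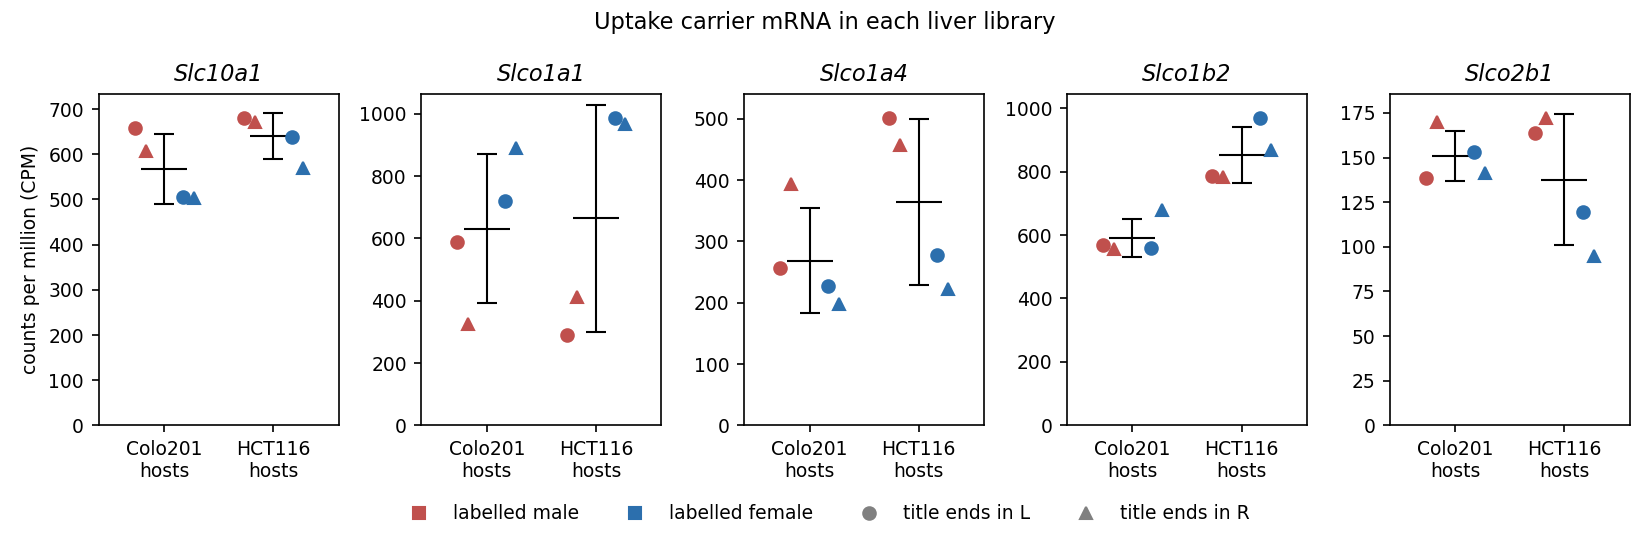
CPM (y axis, from 0) of each carrier in each library, Colo201 hosts left of HCT116 hosts, with black bars for the mean and SD of 4 libraries; colour gives the sex label and the marker shape the L or R of the title. Slco1b2 separates the lines, with 555 to 679 CPM in Colo201 hosts and 783 to 969 CPM in HCT116 hosts, whereas Slco1a1 separates the sex labels.

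Markers of liver zones and cell types were read beside the Slco1b2 comparison. The 12 pericentral markers summed to 8235 to 10542 CPM in Colo201 hosts, against 11704 to 14262 CPM in HCT116 hosts, without overlap. No share over all genes was computed for this sum. Of these markers 3 stood higher and 9 lower in Colo201 hosts, and edgeR called 2 higher and 3 lower. With edgeR 7 had an unadjusted p under 0.05, and DESeq2 called 6. The 12 periportal markers summed to 99838 to 134356 CPM in Colo201 hosts and 88931 to 130682 CPM in HCT116 hosts, with 3 called higher and 1 lower. No marker of either list was at 0 in all libraries. Among the other lists, 3 of 12 hepatocyte markers, 1 of 9 cholangiocyte markers and 1 of 12 stellate cell markers were called higher in Colo201 hosts, 1 of 7 erythroid markers was called lower, and 0 of 12 endothelial and 0 of 12 Kupffer cell and macrophage markers were called with edgeR. In each of the last lists 1 gene had an unadjusted p under 0.05, and DESeq2 called 0 endothelial markers and 1 macrophage marker. The part of these markers in the Slco1b2 result was not tested. In bulk liver RNA, fewer cells of a type and less RNA per cell cannot be told apart.

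Within libraries labelled male, 0 of the 5 carriers were called between the lines, where 0.232% of all genes tested were. Within libraries labelled female, again 0 of 5 were called, against 0.492% of all genes. In both cases 2 carriers had an unadjusted p under 0.05 with edgeR, where 13.1% of all genes did within labelled male and 14.1% within labelled female; DESeq2 called 1 carrier, Slco1b2, in each. Slco1b2 averaged 561 CPM in Colo201 hosts and 785 CPM in HCT116 hosts among libraries labelled male (n = 2 each), with a log2 fold change of -0.44 (standard error 0.12; adjusted p = 0.217, edgeR). Among libraries labelled female it averaged 619 CPM in Colo201 hosts and 918 CPM in HCT116 hosts, with a log2 fold change of -0.55 (standard error 0.12; adjusted p = 0.122, edgeR). The DESeq2 adjusted p-values for Slco1b2 were 0.0495 among libraries labelled male and 0.00578 among those labelled female. Each of these contrasts set L and R of a single title number against L and R of another.

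Slco1a4 stood at a log2 fold change of -0.53 between the lines within labelled male (SE 0.18, adjusted p = 0.294) and at -0.21 within labelled female (SE 0.18, adjusted p = 0.661). Slc10a1 stood at -0.05 within labelled male and -0.24 within labelled female, and Slco1a1 at 0.43 within labelled male and -0.26 within labelled female. Slco2b1 had the widest gap between labels relative to its error. Among libraries labelled female it had 153 and 142 CPM in Colo201 hosts, against 120 and 94.6 CPM in HCT116 hosts, with the Colo201 values on top as in 21.6% of all genes. The log2 fold change was 0.48 (SE 0.13, adjusted p = 0.174, edgeR). Among libraries labelled male it had 139 and 170 CPM in Colo201 hosts, against 164 and 172 CPM in HCT116 hosts, a log2 fold change of -0.09 (standard error 0.13; adjusted p = 0.843).

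The difference between these effects was tested as an interaction, labelled female minus labelled male. With edgeR 0 of the 5 carriers were called, where 0.0283% of all genes were, and 1, Slco2b1, had an unadjusted p under 0.05, where 4.1% of all genes did; DESeq2 called 0 carriers. Slco2b1 had an interaction of 0.57 on the log2 scale (SE 0.19), and Slco1b2 one of -0.11 (SE 0.17), both at an adjusted p of 0.99998 with edgeR. Line effects that differ between the sex labels were therefore not shown for any carrier.

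**Figure D3:**
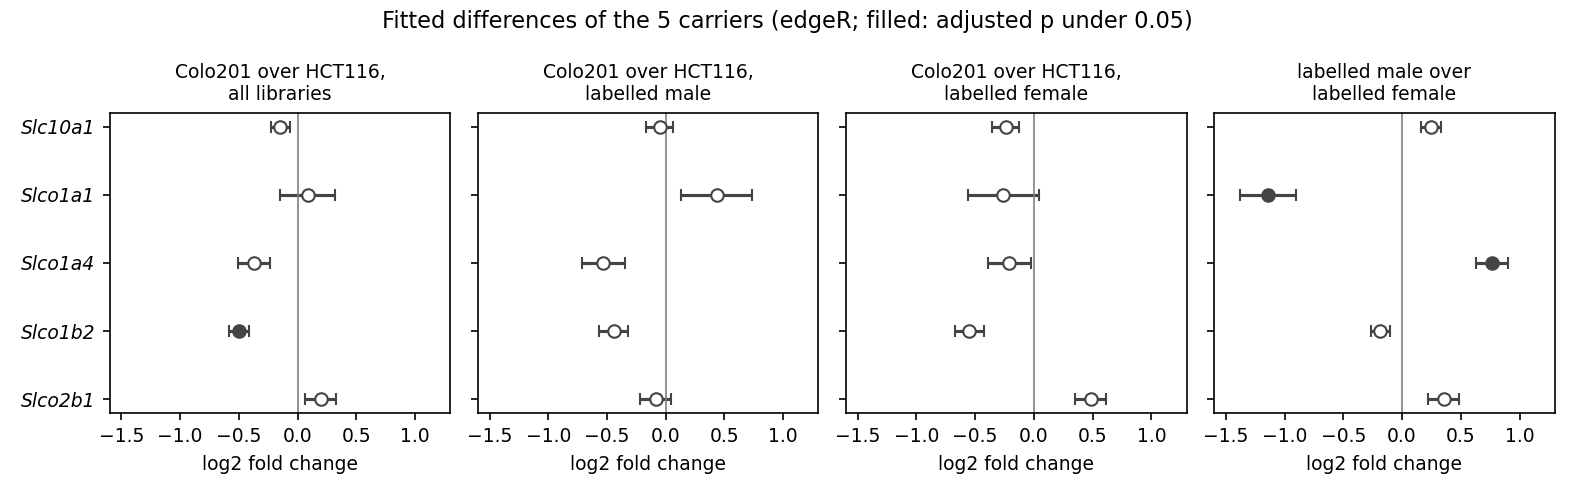
Fitted log2 fold change of each carrier (points, with SE as bars) between Colo201 and HCT116 hosts in all libraries and within each sex label, and between the sex labels (labelled male over labelled female, with line as a covariate). The filled points, those past the threshold, are Slco1b2 between lines at -0.50, and Slco1a1 at -1.14 and Slco1a4 at 0.77 between sex labels.

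Several carriers are known for sex-biased expression in mouse liver, Slco1a1 as higher in males and Slco1a4 as higher in females. By label both stood the other way here, as did the X- and Y-linked genes. Between libraries labelled male and labelled female, with line as a covariate, 2 of the 5 carriers were called, 1 in each direction. Over all genes tested 4.02% were called, 1.96% higher and 2.06% lower in libraries labelled male. An unadjusted p under 0.05 was reached by 4 of the 5 carriers and by 18.2% of all genes. The median log2 fold change, labelled male over labelled female, was 0.25 for the carriers and -0.00092 for all genes.

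Slco1a1 had 588, 324, 291 and 413 CPM in the libraries labelled male (Colo201 2L and 2R, HCT116 1L and 1R), against 721, 890, 986 and 967 CPM in those labelled female (Colo201 4L and 4R, HCT116 3L and 3R). The ranges did not overlap, which held in this direction for 4.71% of all genes tested. The means were 404 ± 133 CPM in libraries labelled male and 891 ± 121 CPM in those labelled female (SD, n = 4 each), and the fitted level fell by 54.6%, a log2 fold change of -1.14 (standard error 0.24; adjusted p = 0.0353, edgeR). L and R of the number 2 differed by 1.81 times, the widest gap for Slco1a1 within a title number. The adjusted p ranged from 0.0829 to 0.104 when Colo201 2R or 4R or HCT116 1L, 1R, 3L or 3R was left out, and was 0.111 with L and R summed.

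Slco1a4 had 256, 393, 501 and 457 CPM in the libraries labelled male, against 227, 198, 279 and 222 CPM in those labelled female. Colo201 2L, labelled male, lay below HCT116 3L, labelled female, so the ranges overlapped. The means were 402 ± 107 CPM in libraries labelled male and 232 ± 33.7 CPM in those labelled female (SD, n = 4 each), with a log2 fold change of 0.77 (standard error 0.13; adjusted p = 0.0178, edgeR). The adjusted p was 0.0518 to 0.0685 when Colo201 2R or 4R or HCT116 1L, 1R, 3L or 3R was left out, 0.0687 without the line covariate and 0.0989 with L and R summed.

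The balance of these close relatives is given as a ratio, which was not tested. The FPKM ratio of Slco1a1 to Slco1a4 was 2.79, 1.002, 0.705 and 1.10 in the libraries labelled male (Colo201 2L and 2R, HCT116 1L and 1R), against 3.86, 5.45, 4.30 and 5.29 in those labelled female (Colo201 4L and 4R, HCT116 3L and 3R). Every ratio in the libraries labelled male was lower than every ratio in those labelled female. Both carriers were already called in opposite directions between these labels, so the ratio restates those results and adds no separate support.

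The other carriers had smaller differences that missed the threshold. Slc10a1 averaged 654 ± 32.3 CPM in libraries labelled male and 554 ± 64.7 CPM in those labelled female (SD, n = 4 each; log2 fold change 0.25, SE 0.082, adjusted p = 0.150, edgeR). Slco2b1 averaged 161 ± 15.4 CPM in libraries labelled male and 127 ± 25.8 CPM in those labelled female (log2 fold change 0.35, SE 0.13, adjusted p = 0.191, edgeR, n = 4 each). Slco1b2 averaged 673 ± 129 CPM in libraries labelled male and 768 ± 184 CPM in those labelled female (log2 fold change -0.18, SE 0.084, adjusted p = 0.292, edgeR, n = 4 each).

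Markers of other liver cells moved with the sex label as well. All 12 endothelial markers stood higher in libraries labelled male and 6 of them passed the test, with all 12 at an unadjusted p under 0.05 and 9 called by DESeq2; their summed level spanned 424 to 501 CPM under the male label and 280 to 358 CPM under the female label. All 12 Kupffer cell and macrophage markers also stood higher under the male label; edgeR called 2 higher and 0 lower, 10 had an unadjusted p under 0.05 and DESeq2 called 10. Their sums were 536 to 656 CPM under the male label and 234 to 448 CPM under the female label. Higher calls numbered 2 of 12 hepatocyte, 2 of 12 pericentral and 2 of 12 periportal markers, the last with 3 lower (3, 4 and 7 called by DESeq2 in either direction). The hepatocyte sum did not overlap, with 169398 to 194951 CPM under the male label and 132681 to 160382 CPM under the female label. The periportal sum did not either, with 124942 to 134356 CPM under the male label and 88931 to 107672 CPM under the female label. The pericentral sums overlapped, at 9686 to 14262 CPM under the male label and 8235 to 12326 CPM under the female label. Under the male label 7 hepatocyte markers stood higher and 5 lower (median log2 fold change 0.11), and 9 periportal markers stood higher and 3 lower. The most abundant genes weigh most in such sums, and no share over all genes was computed for any of them. Of the other lists, 1 of 7 erythroid markers was lower, while 0 cholangiocyte and 0 stellate cell markers were called with edgeR (1 and 0 at an unadjusted p under 0.05, and 0 in both with DESeq2). No endothelial, macrophage, hepatocyte or periportal marker was at 0 in all libraries, and the part of these lists in the Slco1a4 and Slco1a1 results was not tested. Of the listed male-biased liver genes 10 of 12 were lower in libraries labelled male, and of the listed female-biased genes 13 of 16 were higher there, in the same reversed sense as the X- and Y-linked genes. Between the lines, 1 of the 12 male-biased genes was lower in Colo201 hosts, and of the 16 female-biased genes 1 was higher and 1 lower. With edgeR, 5 male-biased and 8 female-biased genes had an unadjusted p under 0.05, and DESeq2 called 2 and 5. In the interaction edgeR called 2 of 16 female-biased and 0 of 12 male-biased genes, where 0.0283% of all genes were called. The female-biased sum was 1058 and 822 CPM in Colo201 4L and 4R, against 87.4 and 68.1 CPM in HCT116 3L and 3R. Under the male label it spanned 4310 to 5426 CPM over both lines.

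**Figure D4:**
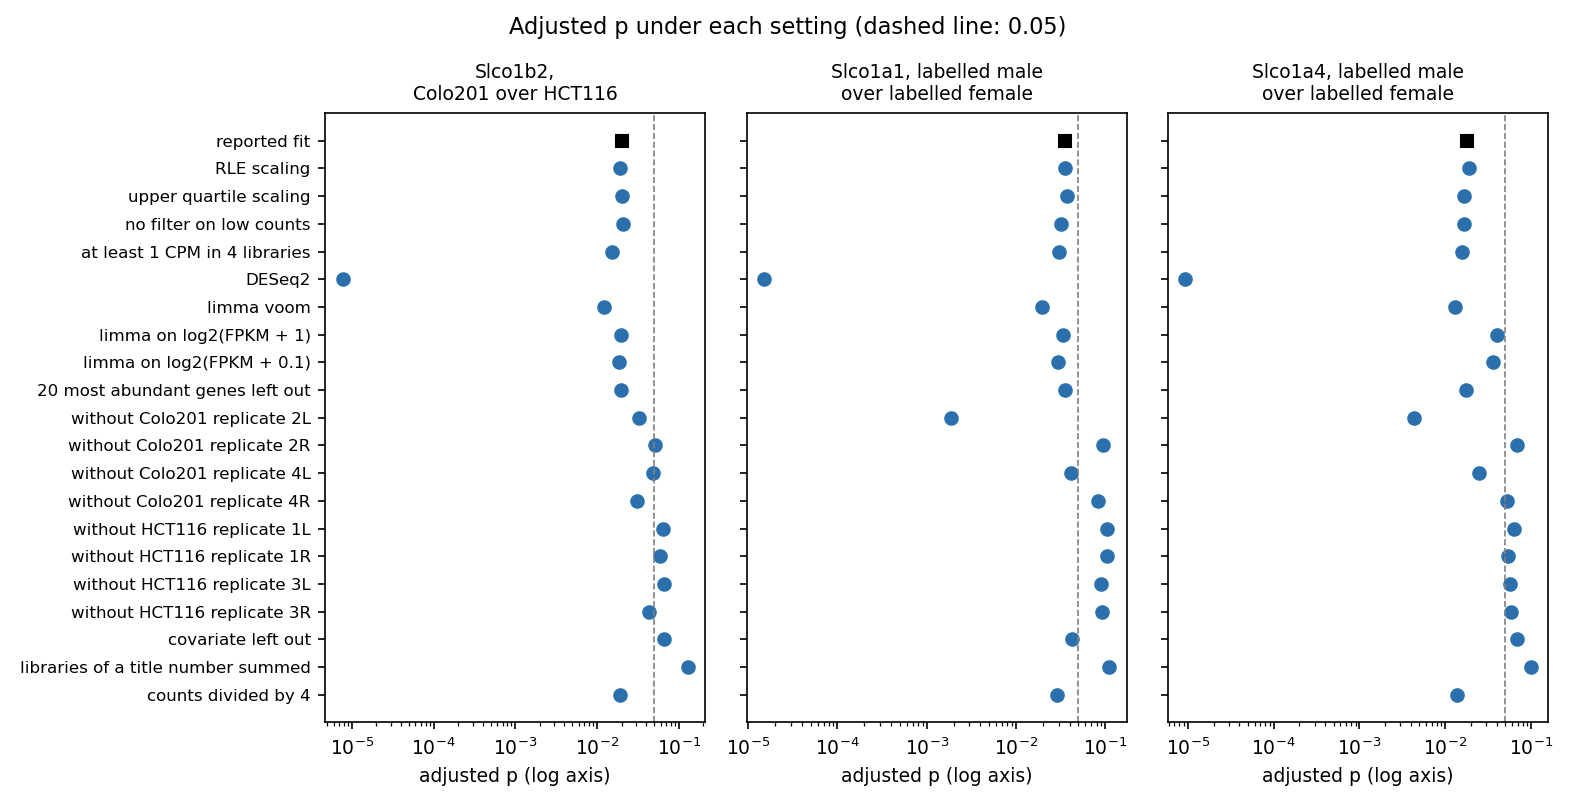
Adjusted p (x axis, log scale) of the 3 carrier results past the threshold, under the reported fit (square) and each alternative setting (circles); the dashed line marks 0.05. Leaving out single libraries moves all 3 results across the line, and DESeq2 gives the lowest values.

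For each carrier the genes with the most similar profile were listed by Pearson correlation of log2 CPM over the 8 libraries, among 11516 named genes averaging at least 1 CPM. The libraries share line and sex label, so these correlations describe the profiles and were not tested. Slco1a1 was closest to Slc22a28 (r = 0.997), a solute carrier of the Slc22 family whose close copies may share its reads, followed by the carboxylesterase Ces3a (r = 0.983) and the proteasome subunit Psmd6 (r = 0.983). Slc22a28 had 9.15, 1.19, 20.2 and 24.1 CPM in the Colo201 libraries, against 0.831, 2.42, 35.2 and 39.9 CPM in the HCT116 libraries. Like Slco1a1, it was highest among libraries labelled male in Colo201 2L.

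Slco1a4 was closest to Ptprb (r = 0.983), a receptor phosphatase of vascular endothelium, Stab2 (r = 0.983), a scavenger receptor of liver sinusoidal endothelium that belongs to the endothelial marker list, and the kinase Dmpk (r = 0.982). Slco1b2 was closest to the ubiquitin ligase Mib1 (r = 0.982), the deubiquitinase Usp25 (r = 0.981) and Atad2b (r = 0.980). Slc10a1 was closest to Tapt1 (r = 0.961), the neuropilin Nrp2 (r = 0.961) and Hnrnpul2 (r = 0.959). Slco2b1 was closest to the sulfotransferase Sult1c2 (r = 0.990), the sorting nexin Snx6 (r = 0.983) and the transcription factor Mycl (r = 0.979).

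The other families of the sinusoidal membrane were read between the lines, where 4.78% of all genes were called, 2.48% higher and 2.3% lower. Of 13 further Slco genes listed, 2 passed the filter and 0 were called with edgeR or DESeq2, 1 having an unadjusted p under 0.05; the prostaglandin carrier Slco2a1 had 84.4 ± 12.6 CPM in Colo201 hosts and 72.7 ± 7.64 CPM in HCT116 hosts (SD, n = 4 each). Of 5 other Slc10 genes tested 0 were called with edgeR (2 at an unadjusted p under 0.05, 1 with DESeq2), with Slc10a5 at a log2 fold change of -0.65 (standard error 0.18; adjusted p = 0.0747, edgeR). Of 7 Slc22 carriers 1 was called, the carnitine carrier Slc22a5, with 22.7 ± 5.32 CPM in Colo201 hosts and 39.5 ± 7.75 CPM in HCT116 hosts (n = 4 each; log2 fold change -0.78, SE 0.13, adjusted p = 0.0184, edgeR).

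Exporters complete the path of a bile salt through the hepatocyte. Of 5 basolateral exporters 0 were called with edgeR or DESeq2, and 1 had an unadjusted p under 0.05; Abcc3, which returns bile salt conjugates to the blood, had 493 ± 120 CPM in Colo201 hosts and 394 ± 92.8 CPM in HCT116 hosts (n = 4 each; log2 fold change 0.36, SE 0.15, adjusted p = 0.216, edgeR). Of 9 canalicular transport genes 2 were lower and 0 higher in Colo201 hosts, where 2.3% of all genes were lower and 2.48% higher. The conjugate exporter Abcc2 had 325 ± 30.1 CPM in Colo201 hosts and 443 ± 45.3 CPM in HCT116 hosts (n = 4 each; log2 fold change -0.42, SE 0.088, adjusted p = 0.0374, edgeR). The multidrug exporter Abcg2 had a log2 fold change of -0.69 (standard error 0.15; adjusted p = 0.0435, edgeR), and Abcb11, the bile salt export pump, one of 0.06 (SE 0.087, adjusted p = 0.729). The median log2 fold change was 0.034 for the canalicular genes, -0.020 for the Slc22 carriers and -0.70 for the basolateral exporters, of which Slc51a and Slc51b reached at most 1.32 and 0.489 CPM in any library.

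**Figure D5:**
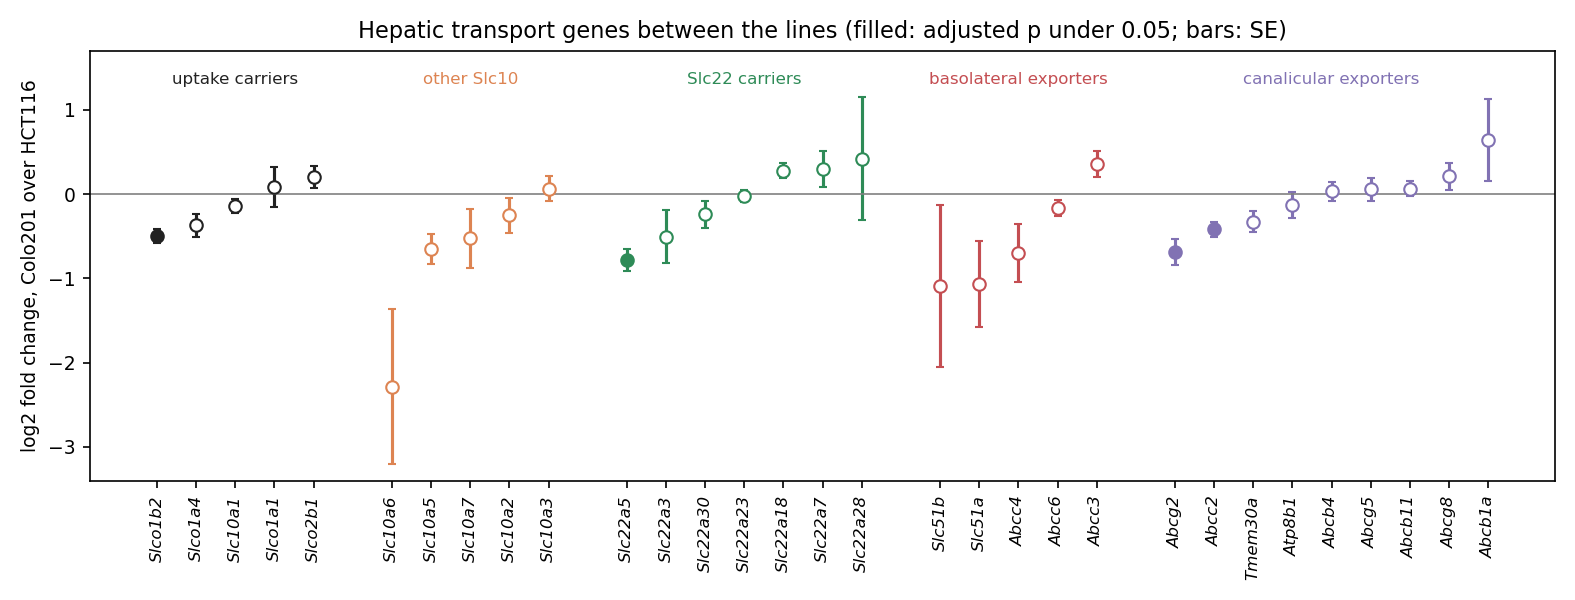
Log2 fold change, Colo201 over HCT116 (y axis; bars are SE), of the tested genes of 5 groups of hepatic transporters. Filled points passed an adjusted p of 0.05, namely Slco1b2, Slc22a5, Abcg2 and Abcc2, all below 0.

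The transcription factors and receptors known to act on these transporter genes were read from the same fit. Of 19 listed, 3 were lower and 0 higher in Colo201 hosts with edgeR, where 2.3% of all genes were lower and 2.48% higher. With edgeR 6 of the 19 had an unadjusted p under 0.05, and DESeq2 called 5. The median log2 fold change of the 19 was 0.0070. The xenobiotic receptor Nr1i3 (CAR) had 206 ± 112 CPM in Colo201 hosts and 485 ± 179 CPM in HCT116 hosts, Nr1i2 (PXR) 72.3 ± 15.98 CPM in Colo201 hosts and 106 ± 22.3 CPM in HCT116 hosts, and the bile acid receptor Nr1h4 (FXR) 104 ± 7.36 CPM in Colo201 hosts and 145 ± 6.03 CPM in HCT116 hosts (SD, n = 4 each). Nr0b2 (SHP), the repressor induced by FXR, had a log2 fold change of 0.01 (standard error 0.29; adjusted p = 0.984, edgeR). Of 6 scaffold and membrane partners tested 0 were called with edgeR or DESeq2 and 1 had an unadjusted p under 0.05, the PDZ protein Pdzk1 at -0.26 (SE 0.097, adjusted p = 0.163, edgeR). Of 11 genes on the growth hormone route 0 were called with edgeR, 3 had an unadjusted p under 0.05 and 1 was called with DESeq2.

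Between the sex labels, Nr1i2 and Nr1i3 were higher in libraries labelled male, by 0.51 (SE 0.075, adjusted p = 0.00832, edgeR) and 1.04 (SE 0.17, adjusted p = 0.0125, edgeR) on the log2 scale, and Cebpa was lower. Of 11 genes on the growth hormone route, which sets much of the sex bias of mouse liver, 2 were higher and 1 lower in libraries labelled male. The prolactin receptor Prlr had 245 ± 45.2 CPM in libraries labelled male and 90.5 ± 9.11 CPM in those labelled female, the feedback inhibitor Socs2 52.4 ± 4.51 CPM in libraries labelled male and 27.8 ± 3.17 CPM in those labelled female, and the repressor Bcl6 5.86 ± 2.92 CPM in libraries labelled male and 38.7 ± 14.1 CPM in those labelled female (SD, n = 4 each). Among other transporters, Slc10a2, the ileal-type bile salt carrier, had 4.28 ± 1.43 CPM in libraries labelled male and 16.2 ± 0.859 CPM in those labelled female (n = 4 each; log2 fold change -1.96, SE 0.21, adjusted p = 0.00182, edgeR). Abcg2 was also lower in libraries labelled male, by a log2 fold change of -1.51 (standard error 0.16; adjusted p = 0.00141, edgeR), and so was Slc22a30, at -0.82 (SE 0.16, adjusted p = 0.0292, edgeR). With edgeR, 0 of the 2 further Slco genes, 0 of 5 basolateral exporters and 0 of 6 scaffold and membrane partners were called between the sex labels. At an unadjusted p under 0.05 these lists held 1, 2 and 1 genes, and DESeq2 called 1 in each.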

How the data were processed

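Polyadenylated RNA of mouse livers was sequenced in 8 stranded TruSeq mRNA libraries, per the labels' protocols. HISAT2, StringTie and GRCm38 (mm10) are named in the submitters' processing notes without versions. The annotation used and the handling of strand in counting were not given in the sources used here. The authors' estimated counts per gene were deposited as whole numbers, and edgeR took them unchanged. Of values from 1 to 16, 43.9 to 45.0% were multiples of 4, where an even spread gives 25%, so 1 count is not 1 fragment. The authors' FPKM table, deposited beside it, was used for levels between genes and in alternatives. Of 55401 identifiers 55141 matched a symbol in GENCODE vM21.

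CPM were taken over each library's total. Counts were scaled by TMM and filtered with filterByExpr, and 17669 genes were fitted with edgeR 4.0.16 (R 4.3.3, glmQLFit and glmQLFTest). Tests were two-sided, with Benjamini-Hochberg adjustment over all genes tested and a threshold of 0.05. Lines were compared with sex label as a covariate and sex labels with line; effects within a label and the interaction came from a cell-means fit of the 4 combinations. Alternatives were RLE and upper quartile scaling, other filters, DESeq2 1.42.0, limma 3.58.1 (voom, and log2 FPKM after adding 1 or 0.1), omission of the 20 top genes, no covariate, title numbers summed, counts divided by 4, and each library left out. The fits were also run on simulated counts in which every library was drawn independently. This simulation does not bear on likeness between L and R of a title number.

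The members, the 18 further lists, and the rules were chosen with earlier results of these data known. Named genes were the 5 members, the passing genes of a list with up to 3 others by smallest p or same step, and the 3 most similar genes per member. Coding sequences were aligned over their whole length with Biopython 1.88, and promoter windows came from RefSeq. Some genes and motifs are not reported here.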

Additional observations from a re-analysis of the deposited data

Results flagged for a closer look

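Among 20 sets of 4 libraries (each carrier within a line or within a sex label), 1 held a library that stood far from the rest, about what chance gives at 1 in 20 sets. Slco1b2 had 679 CPM in Colo201 4R, against 555 to 567 CPM in the other 3 Colo201 libraries, and the gap to the nearest of them was 0.900 of the whole range, above Dixon's 95% critical value for 4 libraries. This library lay toward the HCT116 range of 783 to 969 CPM without reaching it. Without it the log2 fold change of Slco1b2 between the lines had an adjusted p of 0.0307 with edgeR.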

How the results depend on the processing

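No paired analysis was possible because the lines share no replicate numbers. Of 25 comparisons of a single carrier, 15 kept their direction and their side of the threshold under all alternatives run. None of these 15 was called in the reported fit. Slco1b2 between the lines lost its call in 6 of 20 alternatives. Between the sex labels, Slco1a1 lost its call in 7 of 20 and Slco1a4 in 8 of 20. The count of carriers called between the lines, 1 as reported, was 0 without the sex label covariate and with title numbers summed, and 0 to 1 with a library left out (0 without Colo201 2R or HCT116 1L, 1R or 3L). Within labelled male and within labelled female, 0 as reported, DESeq2 called 1 in each. Between the sex labels, 2 as reported, the count was 1 without the line covariate, 0 with title numbers summed and 0 to 2 with a library left out. Over all genes, 845 were called between the lines, 1993 with DESeq2, 155 without the covariate, 3 with title numbers summed and 182 to 549 with a library left out; 710 were called between the sex labels, 1585 with DESeq2, 340 without the covariate, 141 summed and 314 to 639 with a library left out. Summing leaves 4 libraries, and the other causes were not tested. Signs turned, never past the threshold, for Slco1a1 between the lines (-0.043 without the covariate, and -0.21 without Colo201 2L to 0.21 without 4L as libraries were left out, -0.076 without HCT116 1L). Within labelled male, leaving out libraries gave -0.17 to 0.061 for Slc10a1 (0.061 without Colo201 2R), -0.13 to 0.84 for Slco1a1 (-0.13 without Colo201 2L) and -0.17 to 0.00072 for Slco2b1 (0.00072 without Colo201 2L). The Slco1b2 interaction ranged from -0.25 to 0.0074 (0.0074 without Colo201 4L), all in log2 units. Each carrier had at least 5805 estimated counts per library, and the effect of depth on these calls was not tested.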
